A study of Mus musculus with 12 samples.

Results

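The genes described here are the collagen chains and the other fibroblast matrix genes of the mouse heart. They were taken by name from a table of 13552 genes: every gene named as a collagen chain (Col, a number, a, a number), which gave 29 genes, and 23 further matrix genes from a list of 24. The 24th, P4ha3, was not analysed here, and Col4a3bp, whose name begins like that of a chain but which encodes a ceramide transfer protein, was left out. Of these 52 genes, 41 passed the filter for low values (at least 1 RPKM in at least 3 hearts), as did 11240 genes of the whole table. The other 11, all collagen chains, stayed under it. RPKM divides a gene's reads by the kilobases of its exons and by the size of the library, so levels of different genes can be set side by side per length.

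RNA was sequenced from hearts of male C57BL/6J mice, 8 to 10 weeks old at surgery. The hearts were collected 9 h after transverse aortic constriction (TAC) or sham surgery. The labels say heart and do not say which chambers were taken. TAC narrows the aorta so that the left ventricle works against a higher load, and the sham mice had the operation without the constriction. The 4 groups of 3 mice were wild type (WT) sham (mice 1, 2 and 3), WT TAC (mice 7, 9 and 10), knock-in (KI) sham (mice 1, 2 and 3) and KI TAC (mice 5, 6 and 7). KI mice carry Bcl-xL S14A, in which a serine of the survival protein Bcl-xL that becomes phosphorylated under pressure overload is replaced by alanine. The change is in the germline, so fibroblasts, endothelial cells and blood cells carry it as well as cardiomyocytes, and the study's methods give the WT mice as purchased and do not say whether littermates were used. The study's text says that homozygous KI mice were used from before the point where the sequencing is described, and the labels do not give the number of mutant copies. The comparisons ask how matrix genes responded to TAC in each genotype and whether the genotypes differed.

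Collagen chains are made in the endoplasmic reticulum, where prolyl and lysyl hydroxylases modify them and chains join into triple helices. After secretion, fibrillar collagens are trimmed and line up into fibrils, small proteoglycans bind the fibrils, and lysyl oxidases cross-link collagen and elastin. In the heart most fibrillar collagen comes from fibroblasts, while the collagen IV network of basement membranes is also made by endothelial cells, smooth muscle cells and cardiomyocytes.

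A few stretches of DNA show where some of the genes that changed start. All were read from RefSeq windows of the GRCm38.p6 build, in which 36 of the 52 genes were found, and Lox, Loxl1 and Mfap5 were not among the 36. The first is shown because Col4a1 and Col4a2, both of which rose in both genotypes, lie head to head on chromosome 8, Col4a1 on the minus strand from 11312826 and Col4a2 on the plus strand from 11312805, so that their first exons share 22 bases. The others are the 250 bases before the start of Vcan, which rose in both genotypes, of Col8a1, which rose in WT hearts, and of Fbln1, which fell in both. Each is written 5′ to 3′ on the strand of its gene (plus strand for the shared stretch). Capitals mark matches, on either strand, to any of 6 motifs. The promoter elements searched were TATAAA, the box bound by TBP, the box CCAAT, bound by the factor NF-Y, and the GC box GGGCGG, bound by Sp1. The response elements searched were TGANTCA for AP-1, the hypoxia core ACGTG and the doubled Smad core GTCTAGAC.
Col4a1 and Col4a2, chr8:11312805-11312826: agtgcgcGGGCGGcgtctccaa
Vcan, chr13:89742513-89742762, minus strand: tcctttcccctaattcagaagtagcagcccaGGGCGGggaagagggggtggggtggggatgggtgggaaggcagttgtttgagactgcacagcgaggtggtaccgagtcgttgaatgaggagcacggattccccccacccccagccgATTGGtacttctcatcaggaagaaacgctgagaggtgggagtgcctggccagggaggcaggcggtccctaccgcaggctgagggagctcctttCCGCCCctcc
Col8a1, chr16:57754738-57754987, minus strand: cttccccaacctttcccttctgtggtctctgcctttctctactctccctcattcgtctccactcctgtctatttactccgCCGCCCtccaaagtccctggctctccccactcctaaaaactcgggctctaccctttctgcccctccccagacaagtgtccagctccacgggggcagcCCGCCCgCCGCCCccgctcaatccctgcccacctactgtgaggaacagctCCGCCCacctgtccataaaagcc
Fbln1, chr15:85205699-85205948, plus strand: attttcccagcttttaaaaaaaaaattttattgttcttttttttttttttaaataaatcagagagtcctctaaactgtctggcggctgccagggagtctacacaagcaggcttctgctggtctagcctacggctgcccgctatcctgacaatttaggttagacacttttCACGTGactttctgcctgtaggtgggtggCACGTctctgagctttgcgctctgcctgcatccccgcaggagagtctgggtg

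The stretch of Vcan held 3 matches, 2 GC boxes and a CCAAT box. That of Col8a1 held 4 GC boxes, and that of Fbln1 held 3 matches to ACGTG, of which 2 overlap on opposite strands. Among the 36 genes with a window, a GC box stood in the 250 bases before the start in 22 (61.1%), against 32.9% of all 27025 genes with a window. TATAAA was found in 11.1% of the 36 against 13.0% of all, CCAAT in 22.2% against 34.5%, ACGTG in 22.2% against 16.6%, TGANTCA in 2.78% against 6.87%, and GTCTAGAC in none of the 36 against 0.174%. The 27025 genes were not limited to genes measured in these hearts, so the 2 sets are unlike in more than matrix membership. These matches describe the letters of the windows and say nothing about binding.

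Libraries held 23650387 to 32455161 reads on genes, recovered from the table. At that depth the 41 genes had between 47 and 79036 reads in a heart, with a median of 1570 over the genes' mean counts. The tissue label held: the 10 cardiomyocyte markers summed to between 5112 and 11540 RPKM in the 12 hearts. Bcl2l1, which encodes Bcl-xL, lay between 6.59 and 19.1 RPKM in the WT and KI sham and WT TAC hearts and between 24.5 and 37.0 RPKM in KI TAC hearts, and a point mutation leaves nothing in a level that could check the genotype labels.

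Some hearts stood apart from others of their group in these genes. Mouse 1 of WT sham was the highest of its group in 33 of the 41 genes (53.5% of all genes), mouse 1 of KI sham in 35 (39.1% of all genes), and each of these was highest in 17 of 18 collagen chains. WT TAC mouse 10 was the highest of its group in 33 of the 41 (55.6% of all genes) and WT TAC mouse 9 the lowest in 29 (51.9% of all genes). KI TAC mouse 7 was the highest of its group in 28 (53.7% of all genes). Medians of the 41 genes and of the fibrillar chains, values of Col1a1, Col1a2, Col3a1 and Bgn, and calls that 1 heart decided are also given below without the hearts they moved with.

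**Figure D1:**
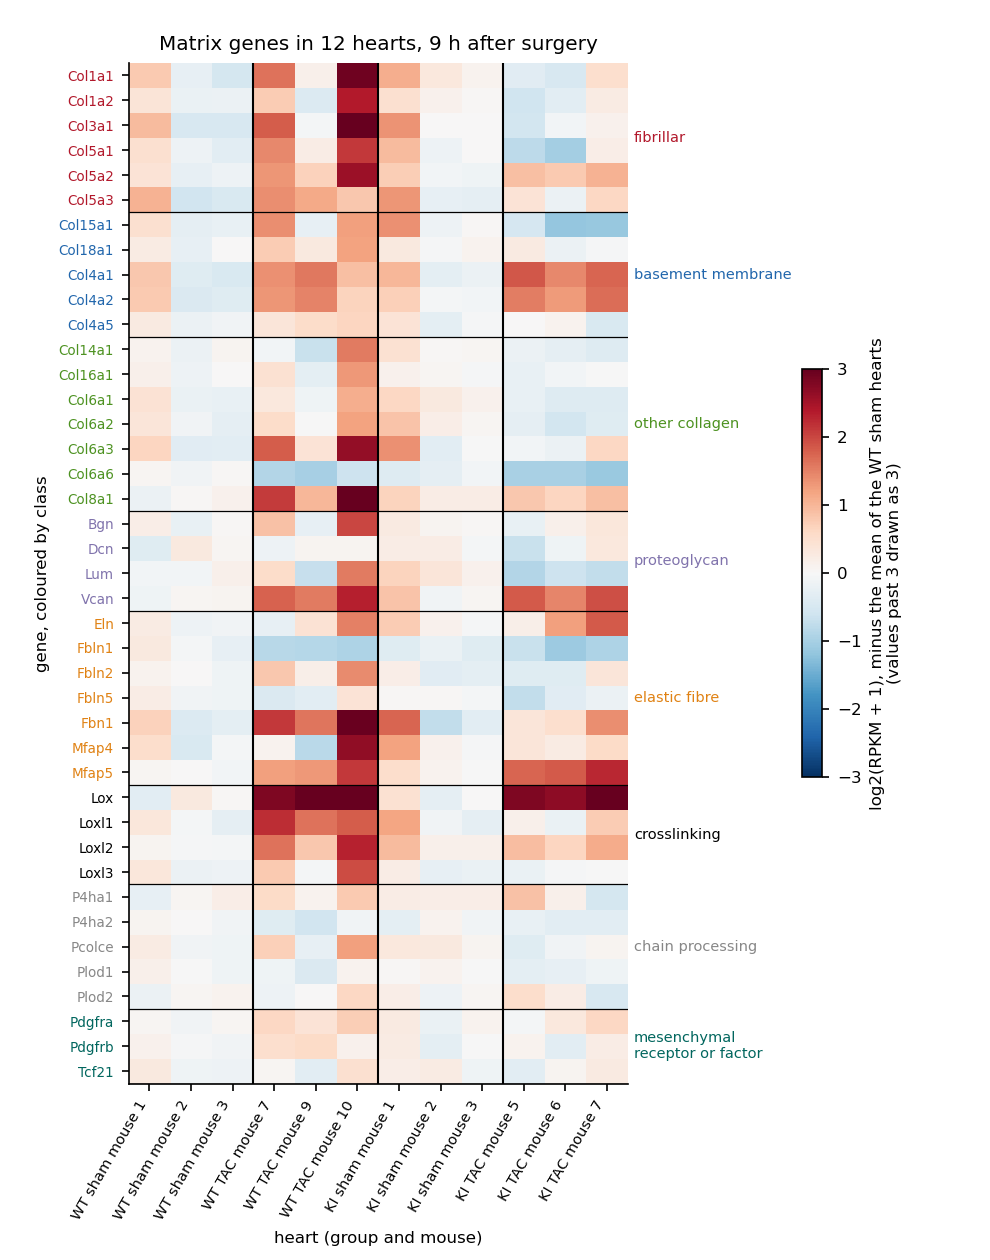
Levels of the 41 matrix genes past the filter (rows, coloured and grouped by class) in the 12 hearts (columns), as log2(RPKM + 1) minus the mean of the 3 WT sham hearts, red above it and blue below, with values past 3 drawn as 3. Most fibrillar chains are red in WT TAC mice 7 and 10 and paler in WT TAC mouse 9. Lox, Mfap5, Vcan, Col4a1 and Col4a2 are red in all KI TAC hearts, and Eln is as deep a red as the Col4 chains in KI TAC mouse 7.

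In WT hearts TAC raised 3 of 4 lysyl oxidases, Col4a1 and Col4a2 of collagen IV, versican and the microfibril genes Fbn1 and Mfap5. Of the 41 genes, 11 rose and 2 fell at an adjusted p under 0.05, where 6.96% of all genes tested rose and 4.6% fell (limma on log2(RPKM + 1), Benjamini-Hochberg adjustment over 11240 genes). Genes that rose were Lox, Loxl1, Loxl2, Col4a1, Col4a2, Col18a1, Col5a2, Col8a1, Vcan, Fbn1 and Mfap5, and those that fell were Fbln1 and Col6a6. The 41 genes had a median log2 fold change of 0.75, against 0.04 for all genes, and 36 of the 41 lay above 0. Without WT TAC mouse 10 that median was 0.46, and without WT TAC mouse 9 it was 1.05. In heart tissue, more cells of a type and more RNA per cell cannot be told apart.

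In KI hearts TAC raised Lox, versican, Mfap5, Col4a1 and Col4a2 as well, and Col15a1 and Lum were among the genes that fell. There 5 rose and 4 fell, where 8.57% of all genes tested rose and 14.7% fell. Lox, Vcan, Mfap5, Col4a1 and Col4a2, all among the 11 that rose in WT hearts, rose in KI hearts too, and Fbln1 and Col6a6 fell in both genotypes. Col15a1 and Lum fell in KI hearts, where in WT hearts neither passed the test. The median log2 fold change was -0.10 for the 41 genes and -0.10 for all genes (0.02 and -0.11 without KI sham mouse 1). Median-ratio scaling, which moved the median of all genes to 0.00, gave 5 rises (12.8% of all genes) and 1 fall, Col6a6 (12%), with a median of 0.02 for the 41. The calls of Col15a1, Lum and Fbln1 were lost under it, and those of Col15a1 and Lum under quantile normalization too.

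Constricted KI hearts held less RNA of 5 collagen chains and of Loxl1 than constricted WT hearts. None of the 41 genes was higher and 6 were lower in the KI TAC group than in the WT TAC group, where 2.92% of all genes tested were higher and 8.13% lower. The 6 were Col5a1, Col15a1, Col18a1, Col6a2, Col8a1 and Loxl1. At an unadjusted p under 0.05 there were 18 of the 41 and 30.3% of all genes. The median log2 difference was -0.61 against -0.12 for all genes, and 36 of the 41 lay below 0. Under median-ratio scaling 3 genes were lower (5.37% of all genes) and 0 higher (5.72%), and the median was -0.48. Without WT TAC mouse 10 the median of the 41 was -0.23, against -0.06 for all genes, and without WT TAC mouse 9 it was -0.98, against -0.17.

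Between the sham groups no gene of the 41 passed the test, where 0.0178% of all genes tested did. None of the 41 had an unadjusted p under 0.05, against 0.329% of all genes tested, though with the mouse number as a replicate block Col3a1 and Col1a1 had an unadjusted p of 0.0181 and 0.0287 in limma, in a fit where 0.73% of all genes were under 0.05. With limma-voom on the recovered reads 0 passed too. The median log2 difference was 0.19, against 0.01 for all genes, with 35 of the 41 above 0 in KI sham hearts. It was 0.0014 without KI sham mouse 1. The interaction of genotype and surgery, a test of unequal responses in WT and KI hearts, was called for none of the 41 and for 0% of all genes tested. At an unadjusted p under 0.05 there were 15 of the 41 and 1668 of all genes, and limma-voom on the recovered reads called 0 as well. Of the 41, 34 had a lower log2 fold change in KI than in WT hearts, with a median of -0.74 against -0.13 for all genes (-0.37 against -0.07 without WT TAC mouse 10, -1.10 against -0.18 without WT TAC mouse 9). The interaction was called without WT TAC mouse 9 for 9 of the 41, all with the lower fold change in KI hearts: Col1a1, Col3a1, Col5a1, Col15a1, Col6a2, Col8a1, Loxl2, Lum and Pcolce. In that fit 1.58% of all genes were called with the lower and 0.552% with the higher fold change in KI hearts.

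The counts moved with single hearts, and so did those of all genes. Rises in WT hearts numbered 20 without WT TAC mouse 9 (5.99% of all genes), where Bgn, Col1a1, Col1a2, Col3a1, Col5a1, Col6a3, Col16a1, Fbln2, Loxl3, Lum and Pcolce were added and Col4a1 and Col4a2 were lost. Leaving out mouse 7 of WT TAC gave 7 (3.5% of all genes), and there were 6 without WT sham mouse 2 (3.48%), 6 without WT sham mouse 3 (3.62%), and 12 without both sham hearts numbered 1 (5.46%), an exclusion chosen after seeing the data. In KI hearts, rises numbered 3 without KI sham mouse 3 (5.23% of all genes) and 8 without both sham hearts numbered 1 and WT TAC mouse 10 (8.82%). Falls there numbered 2 without KI sham mouse 2 (11.1% of all genes) or without both sham hearts numbered 1 (12.1%). They numbered 1 without KI sham mouse 1 (11.5%), KI sham mouse 3 (7.7%), KI TAC mouse 6 (9.62%) or KI TAC mouse 7 (16.8%). Between the TAC groups, genes lower in KI hearts numbered 18 without WT TAC mouse 9 (10.9% of all genes), where Bgn, Col1a1, Col1a2, Col3a1, Col6a1, Col6a3, Col16a1, Fbln2, Loxl2, Loxl3, Lum and Pcolce were added. They numbered 9 without both sham hearts numbered 1 (8.75% of all genes), 2 when mouse 5 of KI TAC was left out (3.85%) and 1 when mouse 10 of WT TAC was (5.55%). Leaving out mouse 7 of WT TAC (1.01% of all genes) or mouse 6 of KI TAC (1.11%) left 0.

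**Figure D2:**
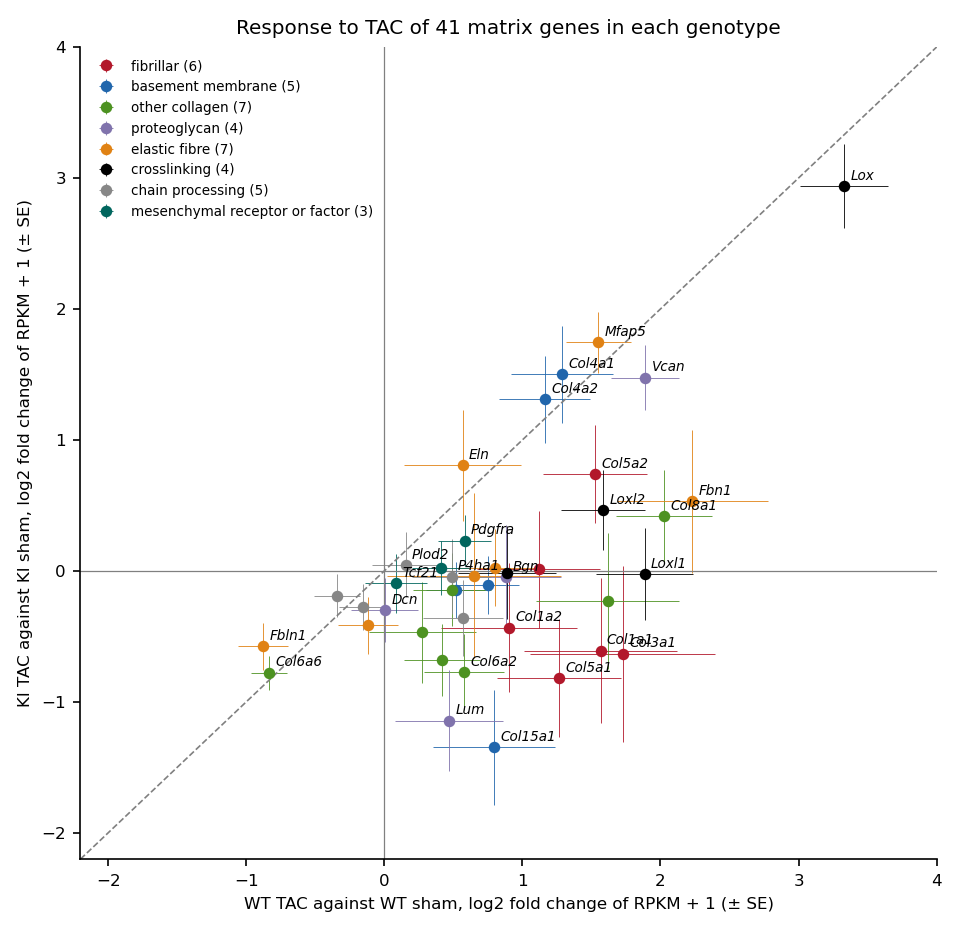
Log2 fold change after TAC in WT hearts (horizontal) and KI hearts (vertical) of the 41 genes past the filter, with standard errors, coloured by class, and the line of equal change dashed. Lox lies at 3.33 and 2.94, Col4a1 at 1.29 and 1.5, Loxl1 at 1.89 and -0.02, and Col8a1 at 2.03 and 0.42.

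The fibrillar chains, 6 of 8 past the filter, form the collagen fibrils between cells. Their median log2 fold change was 1.40 in WT hearts and -0.52 in KI hearts, and all 6 lay below 0 in KI TAC against WT TAC hearts, with a median of -1.40. The KI median moved to -0.24 without KI sham mouse 1. Without WT TAC mouse 10 the WT median was 0.89 and that between TAC groups -0.99, and without WT TAC mouse 9 they were 1.87 and -2.06. Of the 6, 1 rose in WT hearts, none passed the test in KI hearts and 1 was lower in the KI TAC group than in the WT TAC group. Col1a1 encodes the alpha 1 chain of collagen I, the main fibrillar collagen of the heart. Its level was 104, 50.6 and 41.2 RPKM in WT sham mice 1, 2 and 3, 188, 67.4 and 461 RPKM in WT TAC mice 7, 9 and 10, 130, 74.7 and 64.4 RPKM in KI sham mice 1, 2 and 3, and 47.3, 43.1 and 85.2 RPKM in KI TAC mice 5, 6 and 7. WT TAC mouse 10 stood far above all other hearts, WT TAC mouse 9 lay within the range of WT sham hearts, and no pair of groups was free of overlap. The log2 fold change after TAC was 1.57 ± 0.55 (SE, n = 3 per group) in WT hearts (adjusted p = 0.0818, limma) and -0.61 ± 0.55 in KI hearts (adjusted p = 0.455, limma). KI TAC differed from WT TAC hearts by -1.68 ± 0.55 on that scale (adjusted p = 0.0646, limma), and this passed the test without WT TAC mouse 9 or without KI TAC mouse 7. The rise in WT hearts passed it without WT TAC mouse 9, at 2.27. Without WT TAC mouse 10 the WT value was 0.89 and the difference between TAC groups -1.0, neither past the test, and without KI sham mouse 1 the KI value was -0.31.

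Col1a2, the alpha 2 chain of collagen I, had 14.5, 9.30 and 9.59 RPKM in WT sham, 19.2, 7.92 and 60.6 in WT TAC, 15.6, 12.1 and 11.2 in KI sham and 6.89, 8.64 and 13.2 in KI TAC hearts, in the same order of mice. WT TAC mouse 10 was again highest, and WT TAC mouse 9 lay below all sham hearts. Its log2 fold change was 0.90 ± 0.49 in WT hearts and -0.43 ± 0.49 in KI hearts, neither past the test. The WT value was 1.57 without WT TAC mouse 9, where it passed the test, and 0.17 without WT TAC mouse 10, where it did not. Col3a1, which encodes collagen III, the more extensible partner of collagen I, had 26.5, 9.24 and 9.11 RPKM in WT sham, 49.3, 12.5 and 151 in WT TAC, 35.3, 13.4 and 13.3 in KI sham and 8.63, 12.3 and 14.6 in KI TAC hearts. WT TAC mice 7 and 10 lay above every sham heart, WT TAC mouse 9 lay among the WT sham hearts, and KI TAC hearts lay between 8.63 and 14.6 RPKM, below mouse 1 of both sham groups. Its log2 fold change was 1.73 ± 0.67 in WT hearts and -0.63 ± 0.67 in KI hearts, and KI TAC differed from WT TAC hearts by -1.90 ± 0.67 (adjusted p = 0.0807, limma). Without WT TAC mouse 9 that difference was -2.8 and passed the test, as did the WT rise, at 2.63. Leaving out mouse 10 of WT TAC gave -1.05 and 0.88 for these, neither past the test, and leaving out mouse 1 of KI sham gave a KI value of -0.19.

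Collagen V starts fibrils and limits their width. Its alpha 2 chain, Col5a2, was the fibrillar gene that rose in WT hearts, from 3.49, 1.84 and 2.04 RPKM in sham to 7.43, 4.47 and 19.2 RPKM in TAC hearts, without overlap. In KI hearts it was 4.62, 2.21 and 2.10 RPKM in sham and 5.37, 4.82 and 6.00 RPKM in TAC hearts, also without overlap. The log2 fold change was 1.53 ± 0.38 in WT hearts (adjusted p = 0.0186, limma) and 0.74 ± 0.38 in KI hearts (adjusted p = 0.17, limma), and the WT call was lost without WT sham mouse 2 or 3 and kept, at 1.00, without WT TAC mouse 10. Fits of 2 groups alone lost the WT call and called the gene in KI hearts, with the same fold changes.

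Col5a1, the alpha 1 chain, was the fibrillar gene that was lower in the KI TAC group than in the WT TAC group. It had 29.3, 18.4 and 16.3 RPKM in WT sham, 58.3, 24.3 and 93.1 in WT TAC, 41.1, 18.6 and 21 in KI sham and 11.5, 9.63 and 23.8 in KI TAC hearts. KI TAC and WT TAC hearts did not overlap, though WT TAC mouse 9 and KI TAC mouse 7 were close. The difference was -1.81 ± 0.45 (adjusted p = 0.0249, limma), and it was lost without mouse 7 or 10 of WT TAC or mouse 5 or 6 of KI TAC. Col5a3 had a log2 fold change of 1.12 ± 0.45 in WT hearts and 0.01 ± 0.45 in KI hearts, neither past the test. The fibrillar chains Col11a2 and Col27a1 stayed under the filter, with at most 0.758 RPKM in a heart.

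**Figure D3:**
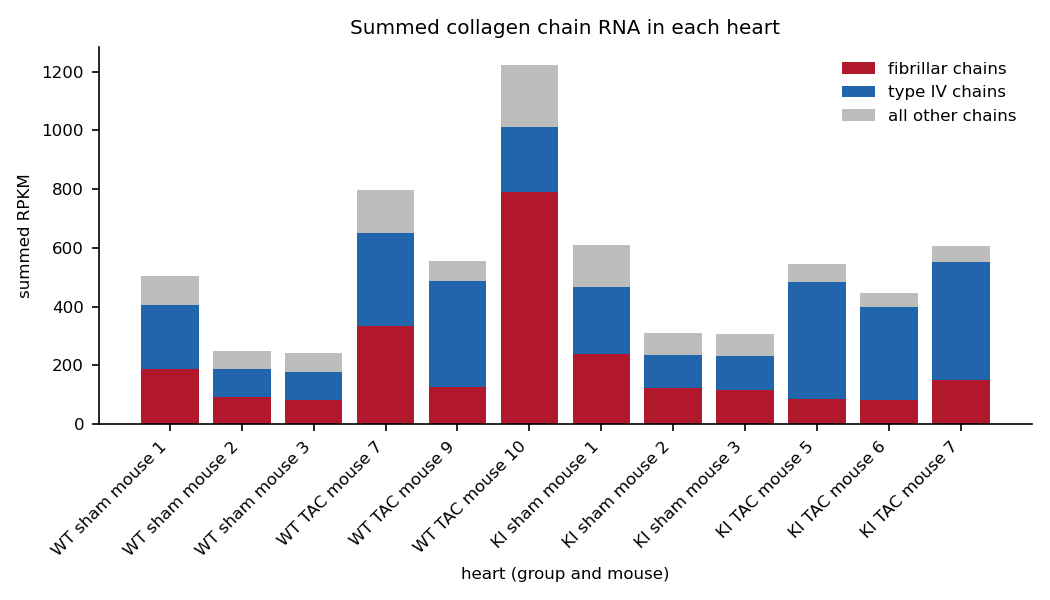
Summed RPKM of all 29 collagen chains in each heart, split into fibrillar chains (8 genes, red), type IV chains (6 genes, blue) and all other chains (grey). Type IV chains sum to 318 to 401 RPKM in KI TAC hearts, where fibrillar chains sum to 81.6 to 149 RPKM, and fibrillar chains reach 792 RPKM in WT TAC mouse 10.

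Among the basement membrane chains, 5 of 8 past the filter, Col4a1 and Col4a2 rose in both genotypes. Of the 5, 3 rose in WT hearts, 2 rose and 1 fell in KI hearts, and 2 were lower in the KI TAC group than in the WT TAC group. Col4a1 and Col4a2 encode the chains of the collagen IV network found in all basement membranes. Col4a1 had 106, 46.2 and 43.3 RPKM in WT sham, 157, 181 and 112 in WT TAC, 120, 48.5 and 53.0 in KI sham and 219, 163 and 202 in KI TAC hearts. TAC hearts lay above sham hearts in both genotypes, and mouse 1 was the highest of each sham group. Its log2 fold change was 1.29 ± 0.37 in WT hearts (adjusted p = 0.0382, limma) and 1.5 ± 0.37 in KI hearts (adjusted p = 0.0108, limma).

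Col4a2 had 104, 43.9 and 46.6 RPKM in WT sham, 150, 170 and 96.2 in WT TAC, 98.7, 57.0 and 56.5 in KI sham and 175, 147 and 194 in KI TAC hearts. WT TAC mouse 10 fell within the sham range, and the KI groups did not overlap. On the log2 scale it differed between TAC and sham by 1.16 ± 0.33 in WT hearts (adjusted p = 0.0367, limma) and 1.31 ± 0.33 in KI hearts (adjusted p = 0.0121, limma). The WT calls of both chains were lost without WT sham mouse 2 or 3 or WT TAC mouse 7 or 9, and their KI calls without KI sham mouse 3. That of Col4a1 in WT hearts was also lost under median-ratio scaling and that of Col4a2 in a fit of the 2 groups alone, which left each in 9 of 14 alternatives. The ratio of Col4a1 to Col4a2 stayed between 0.85 and 1.25 in the 12 hearts.

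Summed over chains, type IV RNA was 219.7 to 361 RPKM in WT TAC hearts and 318 to 401 RPKM in KI TAC hearts, against 96.3 to 219.5 in WT sham and 111 to 229 in KI sham hearts. Fibrillar RNA was 126 to 792 RPKM in WT TAC and 81.6 to 149 RPKM in KI TAC hearts, against 81.4 to 187 in WT sham and 116 to 238 in KI sham hearts. The type IV sums of the TAC groups overlapped, and of the fibrillar sums of these groups WT TAC mouse 9 lay within the KI TAC range.

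Col15a1 fell in KI hearts. It encodes collagen XV, which sits at the outer face of the basement membranes of muscle cells and capillaries. Its levels were 31.8, 18.4 and 19.2 RPKM in WT sham, 60.8, 18.9 and 53.8 in WT TAC, 59.2, 20.0 and 22.9 in KI sham and 15.5, 9.42 and 9.69 in KI TAC hearts. The KI TAC hearts were the 3 lowest of all 12. KI hearts fell by 1.35 ± 0.44 on the log2 scale after TAC (adjusted p = 0.0409, limma), KI TAC lay -1.73 ± 0.44 from WT TAC hearts (adjusted p = 0.0268, limma), and the response of WT hearts was 0.80 ± 0.44 (adjusted p = 0.257, limma). The fall in KI hearts was called in 6 of 14 alternatives at the same threshold and was lost without KI sham mouse 1 (-0.87) or 3 or KI TAC mouse 6 or 7. The difference between TAC groups was lost without mouse 7 or 10 of WT TAC or mouse 6 of KI TAC.

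Col18a1, collagen XVIII, whose end is cut off as endostatin, had 4.33, 2.82 and 3.55 RPKM in WT sham and 6.68, 4.51 and 9.45 RPKM in WT TAC hearts, a rise of 0.75 ± 0.22 on the log2 scale (adjusted p = 0.0436, limma). It was 3.44 to 4.57 RPKM in KI sham and 2.98 to 4.49 RPKM in KI TAC hearts. KI TAC lay -0.73 ± 0.22 from WT TAC hearts (adjusted p = 0.0494, limma), a call kept in 3 of 14 alternatives. The rise in WT hearts was kept in 7 of 14, and was lost without WT sham mouse 2 or 3 or WT TAC mouse 7 or 10. Col4a5 had 7.79 to 9.63 RPKM in WT TAC and 5.09 to 7.19 RPKM in WT sham hearts, with a log2 fold change of 0.52 ± 0.21 that did not pass the test, and -0.15 ± 0.21 in KI hearts, which did not either. Col4a3, Col4a4 and Col4a6, chains of the basement membranes of the kidney and other organs, stayed under the filter, with at most 1.13 RPKM in a heart.

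**Figure D4:**
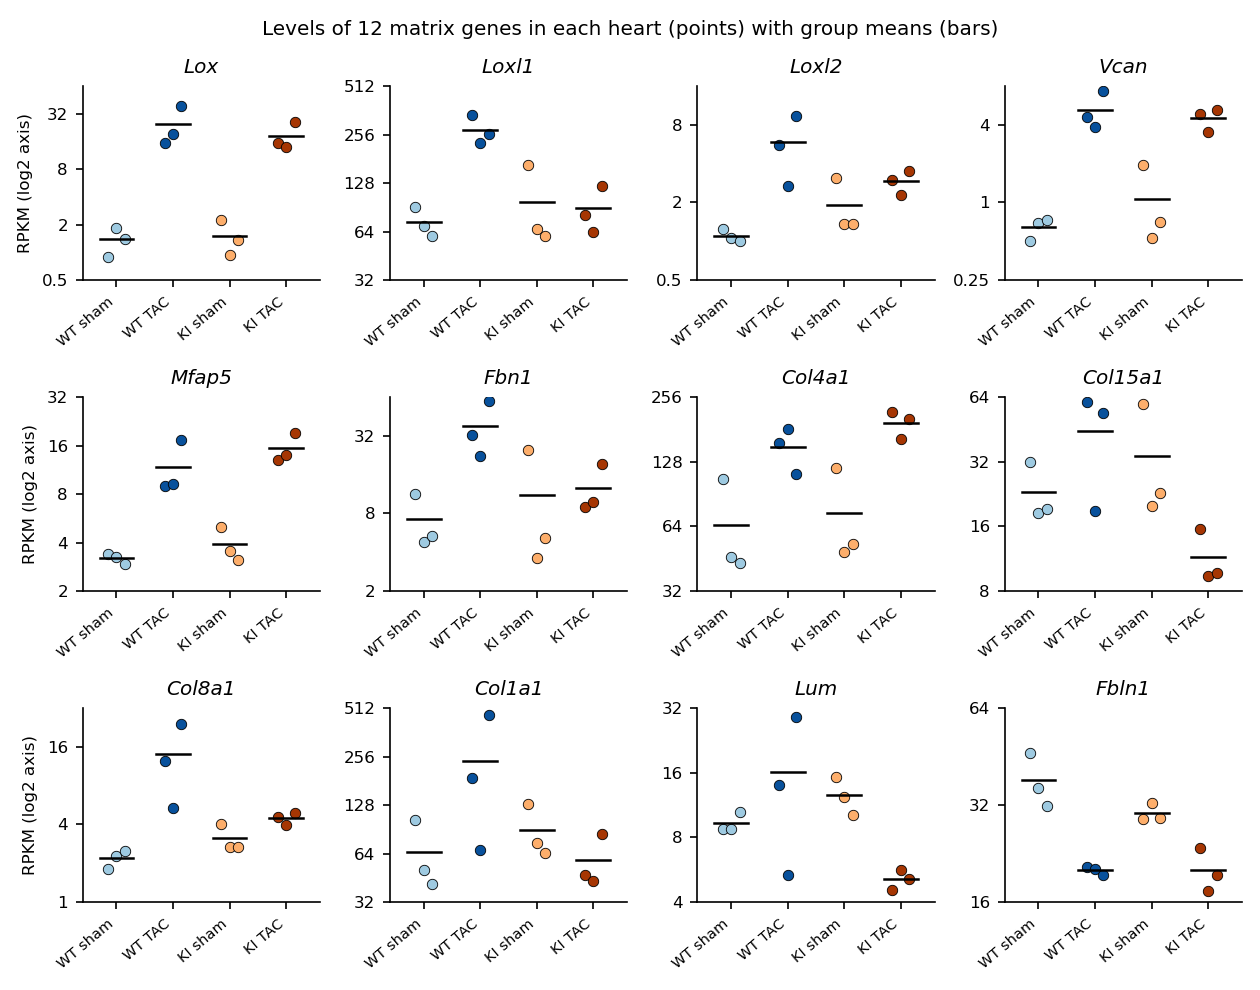
Levels in RPKM (log2 axis, scaled to each gene) of 12 of the genes in each heart (points, within a group in the order of the mouse numbers) and the mean of each group (bars). Lox, Vcan and Mfap5 are high in both TAC groups, Loxl1 in WT TAC hearts, and Fbln1 is low in both TAC groups.

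Of the other collagen chains, 7 of 13 passed the filter, and Col8a1 had the largest fold change in WT hearts. Of the 7, 1 rose and 1 fell in WT hearts, 1 fell in KI hearts, and 2 were lower in the KI TAC group than in the WT TAC group, where all 7 lay below 0. Col8a1 encodes the short-chain collagen VIII, known from the walls of injured vessels. Its levels were 1.79, 2.26 and 2.49 RPKM in WT sham, 12.5, 5.35 and 24.1 in WT TAC, 4.02, 2.69 and 2.68 in KI sham and 4.58, 3.95 and 4.89 in KI TAC hearts. All WT TAC hearts lay above all other hearts. The log2 fold change was 2.03 ± 0.35 in WT hearts (adjusted p = 0.00283, limma), called in all 14 alternatives, and 0.42 ± 0.35 in KI hearts (adjusted p = 0.411, limma). KI TAC lay -1.24 ± 0.35 from WT TAC hearts (adjusted p = 0.0381, limma), and this was lost without mouse 7 or 10 (-0.76) of WT TAC or mouse 5 or 6 of KI TAC, among others.

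Collagen VI makes beaded filaments near basement membranes. Col6a2 had 19.1, 13.5 and 11.9 RPKM in WT sham, 21.9, 14.3 and 34.7 in WT TAC, 27.3, 16.9 and 15.2 in KI sham and 11.8, 9.59 and 11.1 in KI TAC hearts. The KI TAC hearts lay below every other heart. The difference from WT TAC hearts was -0.97 ± 0.29 (adjusted p = 0.0479, limma), close to the threshold and kept in 4 of 14 alternatives, where leaving out any of the 6 TAC hearts except WT TAC mouse 9 ended it. Its partners Col6a1 and Col6a3 differed by -0.76 ± 0.28 and -1.49 ± 0.52, neither past the test.

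Col6a6, an alternative chain of collagen VI, fell in both genotypes, from 1.63, 1.35 and 1.57 RPKM in WT sham to 0.365, 0.254 and 0.639 RPKM in WT TAC hearts. In KI hearts it fell from 0.933, 1.09 and 1.36 RPKM to 0.277, 0.279 and 0.163 RPKM. TAC and sham hearts did not overlap in either genotype. It fell by 0.83 ± 0.13 (adjusted p = 0.00164, limma) and by 0.78 ± 0.13 (adjusted p = 0.00114, limma) on the scale of log2(RPKM + 1), which understates the change of a gene this low, and the group means in RPKM were 0.277 and 0.212 times those of sham hearts. Both calls held in all 14 alternatives. Col14a1 and Col16a1, fibril-associated collagens, did not pass the test in any comparison.

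Of the 11 chains under the filter, Col12a1 was higher in TAC than in sham hearts of WT mice without overlap of the groups, and none was lower without overlap, where 19% and 8.95% of the 2312 genes under the filter were higher and lower in this way. In KI hearts 2 were higher after TAC without overlap, Col12a1 and Col28a1 (9.82% of those genes), and 3 lower, Col4a4, Col4a6 and Col11a2 (31.9%). Between the TAC groups Col28a1 was higher in KI hearts without overlap (3.81%) and no chain was lower (24.9%). Col12a1 encodes a fibril-associated collagen. It had 0.1, 0.142 and 0.107 RPKM in WT sham, 0.815, 0.537 and 3.47 in WT TAC, 0.226, 0.0936 and 0.178 in KI sham and 0.748, 0.346 and 0.352 in KI TAC hearts. With no filter its log2 fold change was 1.05 ± 0.28 in WT hearts (adjusted p = 0.0285, limma) and 0.34 ± 0.28 in KI hearts (adjusted p = 0.413, limma). Col11a2, a minor fibrillar chain, had -0.28 ± 0.09 in KI hearts (adjusted p = 0.0485, limma) in that fit. These genes were chosen for mention after their values were seen.

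Among the 4 proteoglycans, versican rose in both genotypes and lumican fell in KI hearts. Vcan encodes versican, a large proteoglycan that binds hyaluronan and swells the provisional matrix. It had 0.499, 0.696 and 0.733 RPKM in WT sham, 4.56, 3.86 and 7.30 in WT TAC, 1.96, 0.532 and 0.699 in KI sham and 4.88, 3.51 and 5.25 in KI TAC hearts. Every TAC heart lay above every sham heart. Its log2 fold change was 1.89 ± 0.25 in WT hearts (adjusted p = 4.59e-04, limma) and 1.48 ± 0.25 in KI hearts (adjusted p = 0.00114, limma), with group means 8.16 and 4.27 times those of sham hearts, and both calls held in all 14 alternatives. The TAC groups differed by -0.15 ± 0.25, which did not pass the test.

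Lum encodes lumican, which binds collagen fibrils and spaces them. It had 8.71, 8.71 and 10.5 RPKM in WT sham, 14, 5.33 and 29.2 in WT TAC, 15.3, 12.3 and 10.2 in KI sham and 4.57, 5.65 and 5.12 in KI TAC hearts. KI TAC hearts lay below all sham hearts, while WT TAC hearts fell on both sides of theirs. KI hearts fell by 1.14 ± 0.39 on the log2 scale (adjusted p = 0.0476, limma), a call kept in 4 of 14 alternatives and lost without any 1 of the 6 KI hearts. In WT hearts the log2 fold change was 0.47 ± 0.39 (adjusted p = 0.458, limma), and KI TAC lay -1.22 ± 0.39 from WT TAC hearts (adjusted p = 0.0567, limma). Over the alternatives the WT value ran from -0.12 to 1.05 and the difference between TAC groups from -1.80 to -0.68. Both passed the test without WT TAC mouse 9, at 1.05 and -1.80.

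Dcn, decorin, the most abundant of the 4 in sham hearts, had 31.8, 50.2 and 42.9 RPKM in WT sham, 36.8, 43.5 and 43.3 in WT TAC, 48.1, 47.9 and 39.2 in KI sham and 25.3, 37.1 and 51.0 in KI TAC hearts. All groups overlapped, and its log2 fold change was 0.00 ± 0.24 in WT and -0.30 ± 0.24 in KI hearts. Bgn, biglycan, had 28.2, 20.7 and 24.8 RPKM in WT sham, 45.6, 20.4 and 101 in WT TAC, 29.5, 25.9 and 25.1 in KI sham and 20.7, 27.0 and 30.9 in KI TAC hearts. WT TAC mouse 10 was high and WT TAC mouse 9 at the lowest level of all 12, and neither genotype passed the test (0.88 ± 0.40 in WT hearts, -0.05 ± 0.40 in KI hearts). Without WT TAC mouse 9, Bgn rose in WT hearts by 1.45 and lay -1.36 from WT TAC in KI TAC hearts, both past the test. When mouse 10 of WT TAC was left out instead these were 0.32 and -0.23, neither past it.

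Of the 7 elastic fibre genes, Fbn1 and Mfap5 rose and Fbln1 fell in WT hearts, and Mfap5 rose and Fbln1 fell in KI hearts. Fibrillin 1 (Fbn1) forms the microfibrils on which elastin is laid down. It had 11.4, 4.83 and 5.32 RPKM in WT sham, 32.3, 22.5 and 59.4 in WT TAC, 24.7, 3.61 and 5.15 in KI sham and 8.96, 9.86 and 19.3 in KI TAC hearts. WT TAC lay above both WT sham and KI TAC hearts without overlap, and KI sham mouse 1 lay above all KI TAC hearts. The log2 fold change was 2.23 ± 0.55 in WT hearts (adjusted p = 0.0184, limma) and 0.53 ± 0.55 in KI hearts (adjusted p = 0.512, limma). The WT call was lost without WT sham mouse 2 or 3 or WT TAC mouse 7 or 10. Over all alternatives the KI value ran from 0.05 to 1.29. It passed the test only without both sham hearts numbered 1, at 1.29, an exclusion chosen after seeing the data that removes the highest heart of each sham group. The difference of KI TAC from WT TAC hearts was -1.48 ± 0.55 (adjusted p = 0.0919, limma). It passed the test without both sham hearts numbered 1, with the same estimate, since no TAC heart left that fit.

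Mfap5, a glycoprotein of microfibrils, had 3.38, 3.26 and 2.96 RPKM in WT sham, 8.92, 9.29 and 17.3 in WT TAC, 5.03, 3.55 and 3.13 in KI sham and 13.1, 14 and 19.1 in KI TAC hearts. TAC and sham hearts were fully apart in both genotypes. Its log2 fold change was 1.55 ± 0.24 in WT hearts (adjusted p = 0.00133, limma) and 1.74 ± 0.24 in KI hearts (adjusted p = 2.66e-04, limma), and all 14 alternatives kept both calls. Fbln1, fibulin 1, a matrix glycoprotein of vessel walls and valves, had 46.5, 36.1 and 31.8 RPKM in WT sham, 20.6, 20.2 and 19.4 in WT TAC, 29.0, 32.5 and 29.1 in KI sham and 23.5, 17.3 and 19.4 in KI TAC hearts. Every TAC heart lay below every sham heart. It fell by 0.88 ± 0.18 in WT hearts (adjusted p = 0.0076, limma) and by 0.58 ± 0.18 in KI hearts (adjusted p = 0.0336, limma), and the KI call was lost without KI sham mouse 1, 2 or 3 or KI TAC mouse 6 or 7, under median-ratio scaling and in a fit of the 2 groups alone.

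Eln, tropoelastin, had 3.8, 2.66 and 2.77 RPKM in WT sham, 2.43, 4.48 and 10.5 in WT TAC, 5.86, 3.39 and 2.94 in KI sham and 3.55, 8.57 and 13.5 in KI TAC hearts. A high and a low heart stood in each TAC group, and neither fold change (0.57 ± 0.43 in WT, 0.81 ± 0.43 in KI hearts) passed the test. Without KI TAC mouse 5 the KI value was 1.26 and passed it (adjusted p = 0.049, limma). Over the alternatives the KI value ran from 0.43 to 1.26 and the WT value from 0.10 to 0.97, with no other call. The fold changes of Fbln2, Fbln5 and Mfap4 did not pass it in either genotype.

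The lysyl oxidases, which cross-link collagen and elastin, held the largest rise of the 41 genes. Of the 4, 3 rose in WT hearts, 1 in KI hearts, and 1 was lower in the KI TAC group than in the WT TAC group. Lox itself had 0.886, 1.86 and 1.40 RPKM in WT sham, 15.3, 19.5 and 38.7 in WT TAC, 2.24, 0.936 and 1.35 in KI sham and 15.3, 14.1 and 25.9 in KI TAC hearts. Every TAC heart lay above every sham heart. The log2 fold change was 3.33 ± 0.32 in WT hearts (adjusted p = 5.7e-05, limma) and 2.94 ± 0.32 in KI hearts (adjusted p = 7.56e-05, limma), the largest of the 41 genes in both, with group means 17.7 and 12.2 times those of sham hearts. All 14 alternatives kept both calls, and the TAC groups differed by -0.33 ± 0.32 (adjusted p = 0.507, limma).

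Loxl1, lysyl oxidase-like 1, which acts on elastin, had 91.5, 69.5 and 59.8 RPKM in WT sham, 338, 226 and 259 in WT TAC, 166, 66.8 and 59.8 in KI sham and 81.3, 63.3 and 123 in KI TAC hearts. All WT TAC hearts lay above all other hearts, and KI TAC hearts lay within the range of KI sham hearts. Its log2 fold change was 1.89 ± 0.35 in WT hearts (adjusted p = 0.00457, limma) and -0.02 ± 0.35 in KI hearts (adjusted p = 0.966, limma), and KI TAC lay -1.64 ± 0.35 from WT TAC hearts (adjusted p = 0.0146, limma). The rise in WT hearts was kept in all 14 alternatives and the difference between TAC groups in 12, being lost without mouse 7 of WT TAC or mouse 6 of KI TAC. The interaction was -1.91 ± 0.50 (adjusted p = 0.147, limma).

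Loxl2, lysyl oxidase-like 2, which cross-links collagen IV, had 1.24, 1.06 and 1.01 RPKM in WT sham, 5.53, 2.70 and 9.35 in WT TAC, 3.07, 1.35 and 1.35 in KI sham and 2.99, 2.28 and 3.53 in KI TAC hearts. WT groups did not overlap, and KI sham mouse 1 lay within the KI TAC range. The log2 fold change was 1.59 ± 0.30 in WT hearts (adjusted p = 0.00523, limma), kept in all 14 alternatives, and 0.47 ± 0.30 in KI hearts (adjusted p = 0.287, limma). Loxl3 had a fold change of 0.89 ± 0.36 in WT and -0.02 ± 0.36 in KI hearts, neither past the test.

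None of the 5 chain processing genes and none of the 3 mesenchymal receptors and factors passed the test in any comparison. P4ha1, a catalytic subunit of prolyl 4-hydroxylase, had 6.08, 7.78 and 8.74 RPKM in WT sham, 11.6, 8.15 and 13.5 in WT TAC, 8.95, 8.76 and 8.65 in KI sham and 14.5, 8.37 and 4.89 in KI TAC hearts. KI TAC hearts spread more widely than any other group. Plod2, lysyl hydroxylase 2, which shapes the cross-links of collagen, had 3.00, 3.72 and 3.85 RPKM in WT sham, 3.04, 3.54 and 5.90 in WT TAC, 4.17, 3.08 and 3.68 in KI sham and 5.47, 4.23 and 2.22 in KI TAC hearts. Both genes had KI TAC mouse 5 highest and mouse 7 lowest of their group. The fold changes of the 5 genes lay between -0.34 and 0.57 in WT hearts and between -0.36 and 0.05 in KI hearts.

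Pdgfra, the PDGF receptor of resting fibroblasts, had 4.87, 4.23 and 4.88 RPKM in WT sham, 7.65, 6.46 and 8.36 in WT TAC, 5.84, 3.89 and 5.12 in KI sham and 4.39, 6.08 and 7.69 in KI TAC hearts. The WT groups did not overlap and the KI groups did. On the log2 scale it differed between TAC and sham by 0.58 ± 0.19 in WT hearts (adjusted p = 0.0661, limma) and 0.23 ± 0.19 in KI hearts (adjusted p = 0.411, limma), and the WT rise passed the test under median-ratio scaling, quantile normalization and a fit of the 2 groups alone. Tcf21, a transcription factor of cardiac fibroblasts, had 6.15, 4.36 and 4.25 RPKM in WT sham, 5.15, 3.72 and 7.22 in WT TAC, 5.75, 5.92 and 4.35 in KI sham and 3.70, 5.20 and 6.05 in KI TAC hearts. All groups overlapped, with log2 fold changes of 0.08 ± 0.22 and -0.10 ± 0.22.

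**Figure D5:**
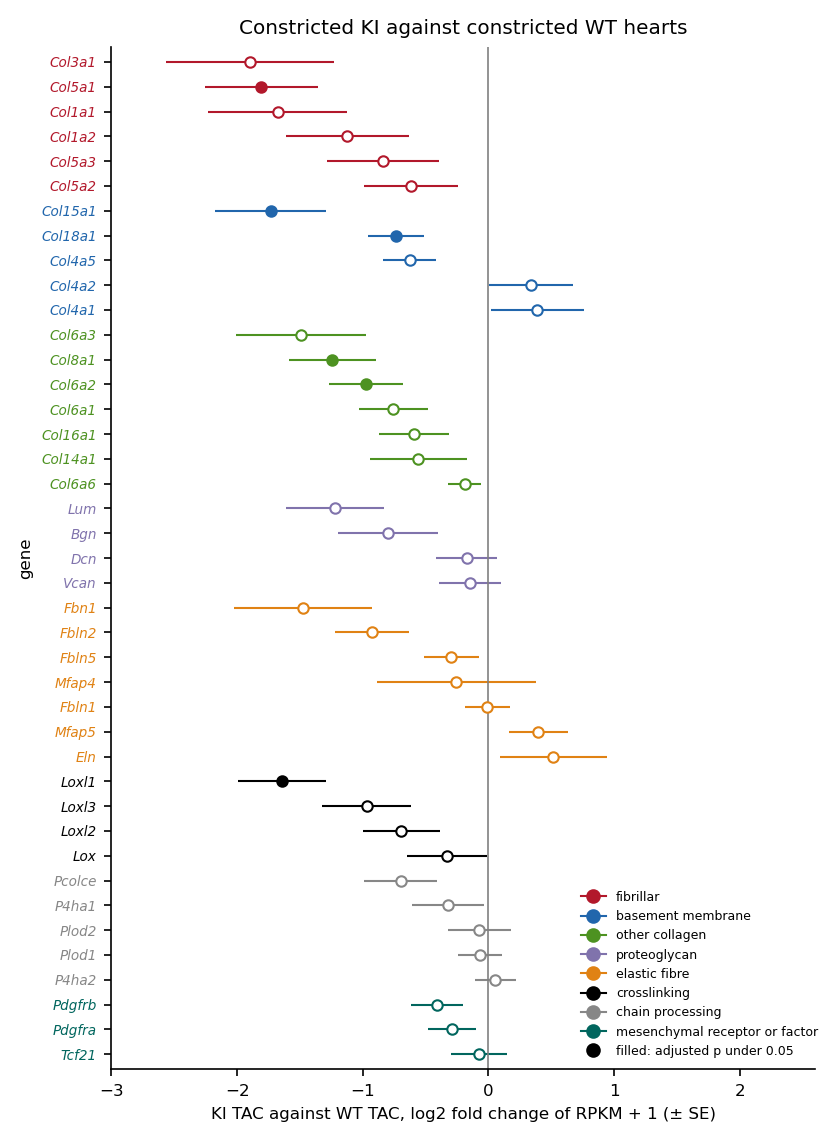
Difference between KI TAC and WT TAC hearts of the 41 genes past the filter, as log2 fold change of RPKM + 1 with its standard error, ordered by class and coloured as named. The 6 filled points passed an adjusted p of 0.05, and 36 of the 41 points lie left of 0.

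Ratios between chains of the same collagen were compared in each heart. The ratio of Col1a1 to Col1a2, in RPKM, was 4.30 to 7.19 in WT sham, 7.61 to 9.76 in WT TAC, 5.77 to 8.34 in KI sham and 4.98 to 6.86 in KI TAC hearts. WT TAC hearts lay above both WT sham and KI TAC hearts, each with a two-sided exact permutation p of 0.1 (0.24 adjusted over 12 tests), which is the smallest that 3 against 3 hearts allow. The ratio of Col6a1 to Col6a2 was 1.22 to 1.37 in WT sham, 1.10 to 1.21 in WT TAC, 1.09 to 1.40 in KI sham and 1.28 to 1.51 in KI TAC hearts. Here WT TAC hearts lay below both WT sham and KI TAC hearts, each with an exact permutation p of 0.1 too (0.24 adjusted). The ratio of Col4a3 to Col4a4, both under the filter, had that p between KI TAC and KI sham hearts. Col1a2 has annotated exons of 12426 bases in all and Col1a1 of 6563 bases, so the level of such a ratio depends on the annotation.

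Counts for other genes of the same pathways can be read against the shares of all genes, which were 6.96% higher and 4.6% lower in WT hearts, 8.57% and 14.7% in KI hearts, and 2.92% and 8.13% between the TAC groups. Of 20 other collagen processing genes tested, 4 rose in WT hearts: Loxl4 (log2 fold change 1.15 ± 0.17), a further lysyl oxidase, Adamts2 (1.17 ± 0.30) and Bmp1 (0.58 ± 0.18), which trim procollagen, and Plod3 (0.62 ± 0.17), a lysyl hydroxylase. In KI hearts none rose and 3 fell, Colgalt2, P3h4 and Crtap, and 5 were lower in the KI TAC group than in the WT TAC group, P3h2, P3h3, Loxl4, Crtap and Bmp1. Over the 20, the median was 0.36 on the log2 scale after TAC in WT hearts and -0.20 in KI hearts. Of 11 other elastic fibre genes, 3 rose and 3 fell in WT hearts, Ltbp2 (2.52 ± 0.46), a member of the latent TGF-beta binding protein family, rising most, and none rose and 6 fell in KI hearts, Ltbp1, Ltbp3 and Ltbp4 among them. Of those 11, 4 were lower in the KI TAC group than in the WT TAC group. Of 5 other small proteoglycans, none passed the test in WT hearts, and Prelp and Ecm2 fell in KI hearts.

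Of 10 genes of activated fibroblasts tested, 6 rose in WT hearts, among them Tnc (tenascin C, 4.59 ± 0.45), Ccn2 (3.32 ± 0.36), Fn1 (fibronectin, 1.86 ± 0.32), Meox1 (1.60 ± 0.37) and Postn (periostin, 2.76 ± 0.67). In KI hearts Ccn2 (3.35 ± 0.36) and Tnc (1.85 ± 0.45) rose and Comp and Sfrp2 fell. Fn1, Tnc and Cilp were lower in the KI TAC group than in the WT TAC group, by log2 differences of -1.97, -2.41 and -2.30. Of 13 other fibroblast identity genes, Medag rose in both genotypes (0.89 ± 0.15 and 0.99 ± 0.15). Gsn and Islr fell in WT hearts, and Islr, Abca8a and Htra3 fell in KI hearts. Dpep1 was higher in the KI TAC group than in the WT TAC group. Of the 13, 3 lay above 0 in fold change in WT hearts, with a median of -0.26. In KI hearts 4 did, with a median of -0.29. The mean log2(RPKM + 1) of these 13 was 4.13 to 4.34 in WT sham, 3.77 to 4.21 in WT TAC, 4.23 to 4.36 in KI sham and 3.68 to 4.16 in KI TAC hearts. Their summed RPKM was 622 to 888 in WT sham, 396 to 481 in WT TAC, 668.5 to 790.5 in KI sham and 497 to 720 in KI TAC hearts. The TAC groups thus overlapped by the mean and not by the sum.

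Markers of other cells moved with some of these groups. The 10 cardiomyocyte markers summed to 9051 to 11540 RPKM in WT sham, 5112 to 6287 in WT TAC, 7829 to 10480 in KI sham and 7351 to 10640 in KI TAC hearts, so that WT TAC hearts had the lowest sums. By mean log2(RPKM + 1) the TAC groups overlapped, at 8.24 to 8.65 in WT TAC and 8.555 to 9.07 in KI TAC hearts. Among the 10 markers Myh6 fell in WT hearts (-1.15) and Pln in KI hearts (-0.93), and Tnni3 (0.95) and Myl2 (0.86) were higher in KI TAC hearts when set against WT TAC hearts, all on the log2 scale. The 9 macrophage markers, all above 0 in fold change in WT hearts, summed to 93.7 to 107 RPKM in WT sham, 111 to 188 in WT TAC, 89.3 to 108 in KI sham and 114 to 143 in KI TAC hearts, with 3 of the 9 called higher in WT hearts, and 1 higher and 1 lower in KI hearts. Of the 9, 3 (Fcgr1, Csf1r and Adgre1) were called lower in KI TAC hearts when set against WT TAC hearts, and none higher. The 10 endothelial markers summed to 527 to 615, 545 to 737, 550 to 672 and 592 to 889 RPKM in the same order of groups, and of them Fabp4 rose in KI hearts by 1.43 on the log2 scale and lay 1.80 above WT TAC in KI TAC hearts. The 3 neutrophil markers tested summed to 0.508 to 1.26 RPKM in WT sham, 3.69 to 9.86 in WT TAC, 0.395 to 0.505 in KI sham and 4.18 to 20.3 in KI TAC hearts, with 2 of the 3 called higher in WT hearts and 3 in KI hearts. The 6 pericyte markers summed to 160 to 191 RPKM in KI TAC hearts and to 214 to 234 RPKM in WT TAC hearts, and of them Notch3 and Cspg4 were lower in KI TAC hearts. Of the 5 smooth muscle markers, which share Acta2 and Tagln with the activated fibroblast genes, Cnn1 rose in WT hearts and Smtn fell in both genotypes, and Cnn1 was lower by a log2 difference of -0.98 when KI TAC was set against WT TAC (adjusted p = 0.0261, limma). The 5 blood markers summed to 74.8 to 114 RPKM in WT TAC and 97.7 to 257 RPKM in KI TAC hearts. Mesothelial, atrial and Schwann cell lists had 1 gene each past the filter, none of which passed a test, and adipocyte markers were not analysed here. The atrial markers Myl7, Sln, Myl4 and Bmp10 were not analysed here either. The part of these cells in the matrix results was not tested.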

How the data were processed

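Poly(A) RNA of 12 hearts was sequenced in single reads of 75 bases from strand-specific libraries. The submitters' processing notes name Trimmomatic 0.39, HISAT2 2.2.1, HTSeq 0.6.1, edgeR 3.18.1, limma 3.32.10 and R 4.1.1, and whether counting used strand is not given in the sources used here. The deposited values are RPKM per gene made by the authors, whose sums over kilobases of exon came to 997702 to 1002226 per heart (GENCODE M21, GRCm38). Between 97.35% and 98.46% of the low values tested (972 to 1682 per heart) were whole reads within 0.1 read, which gave the depth of 23650387 to 32455161 reads per heart. The depth of KI TAC hearts (30298181 to 31676973) lay above that of WT TAC hearts (25715486 to 29608692). Col4a1 and Col4a2 overlap by 22 bases.

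All 4 groups entered 1 limma 3.58.1 fit (R 4.3.3) of log2(RPKM + 1) on genes with at least 1 RPKM in at least 3 hearts, with empirical Bayes moderation and Benjamini-Hochberg adjustment over 11240 genes, tested on simulated data. Genes were called at an adjusted p under 0.05, two-sided. Labels do not say more of the hearts than their mouse numbers. Each p-value sets a difference against a spread between hearts estimated over all 4 groups, so hearts outside a comparison enter it too. Whether the numbers 1 to 3 shared by the sham groups pair the hearts is not stated, and the main fit did not pair them. Deviations of same-numbered hearts correlated at -0.22, -0.30 and 0.44, and so few hearts cannot decide it. The members and lists were chosen with earlier results of these data known. Per-heart values were given for 14 preset genes and, in each class, for the 3 called members with the largest fold change, and for further called members. At most 5 genes per list and comparison were named. Alternatives were a pseudocount of 0.1, no filter, median-ratio scaling, quantile normalization, limma-voom on the recovered reads, fits of 2 groups alone, an adjusted p of 0.10, a replicate block, and each heart left out, and, chosen after seeing the data, leaving out both sham hearts numbered 1, with or without WT TAC mouse 10. A call's 14 alternatives at the same threshold hold these last exclusions and omit the adjusted p of 0.10. Promoter windows came from RefSeq. Tables and figures were made with Python 3.11.15, numpy 2.4.6, pandas 2.3.3 and matplotlib 3.10.9.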

Additional observations from a re-analysis of the deposited data

How the results depend on the processing

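Of 392 checks of the 28 called values at the same threshold, 301 kept the call, 91 lost it and 0 reversed. Lox, Vcan, Mfap5 and Col6a6 in both genotypes, and Fbln1, Loxl1, Loxl2 and Col8a1 in WT hearts, kept theirs in all 14 alternatives. Leaving out 1 heart at a time gave 6 to 20 rises in WT hearts (7 without WT TAC mouse 7), 3 to 6 rises and 1 to 3 falls in KI hearts, 0 to 18 genes lower in the KI TAC group than in the WT TAC group, and 0 to 9 genes for the interaction, the 9 without WT TAC mouse 9. Falls in KI hearts numbered 1 under median-ratio scaling (12% of all genes fell), 2 under quantile normalization (12.9%) and 2 without both sham hearts numbered 1 (12.1%). Genes lower in the KI TAC group than in the WT TAC group numbered 3 under median-ratio scaling (5.37% of all genes), 3 under quantile normalization (5.45%), 1 in a fit of the 2 groups alone (1.25%) and 15 at an adjusted p of 0.10 (14.7%). Without both sham hearts numbered 1 and WT TAC mouse 10, exclusions chosen after seeing the data, 8 genes rose in KI hearts (8.82% of all genes). In that fit 1 of the 41, Mfap5, was higher in the KI TAC group than in the WT TAC group, as were 3.04% of all genes. The cause of these shifts was not tested. Median-ratio scaling moved the median log2 difference of all genes from -0.10 to 0.00 after TAC in KI hearts and from -0.12 to -0.00 between TAC groups, and turned the counts of all genes higher and lower from 963 and 1657 to 1436 and 1350 in KI hearts, from 328 and 914 to 643 and 604 between TAC groups, and from 782 and 517 to 750 and 719 in WT hearts. Under that scaling the median of the 41 genes was 0.72 in WT hearts, 0.02 in KI hearts and -0.48 between TAC groups. With the replicate block, 0 of the 41 genes differed between the sham groups, as without it, and of the WT sham hearts only mouse 3 correlated best with the KI sham heart of its own number.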
